A study of Mus musculus with 359 samples.

Results

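Expression of 32 genes of cholesterol synthesis and sterol transport was followed in liver and lung of mice given 4-methylimidazole (4-MEI), a small ring compound that occurs in caramel colouring. The genes were picked by name for their known roles. That choice was made with earlier results of these data known, so counts of members called give no independent support. The genes are 32 of the 24421 genes in the count tables. They comprise 8 genes of the mevalonate pathway, 11 genes of the steps from squalene to cholesterol, 4 genes that control the transcription factor SREBP2, and 9 genes of sterol transport and storage. In liver all 32 passed the filter on low counts at each day. In lung 30 passed, and Abcg5 and Abcg8 were below it.

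RNA sequencing counted the mRNA fragments of each gene in livers and lungs of male and female B6C3F1 mice, a hybrid laboratory strain, with no other genotype or transgene named. Mice sampled on day 2 had received 4-MEI by gavage, a tube into the stomach, at 0 (vehicle), 50, 100, 200 or 300 mg/kg-d. Those sampled on day 5 or day 28 had eaten feed with 0, 150, 300, 1250 or 2500 ppm of it. Each tissue, day, sex and dose had 6 libraries, apart from lungs of females given 2500 ppm for 5 days, which had 5. Neither age nor time of collection is given in the sources used here. Nothing says more than that the libraries of a group are separate samples, so p-values measure the spread between these samples. In pieces of whole tissue, fewer cells of a type and less RNA per cell cannot be told apart.

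Animal cells make cholesterol from acetyl-CoA, first through mevalonate to isoprenoids, then through squalene and a series of sterol intermediates. When sterol in the membrane of the endoplasmic reticulum is low, the carrier protein SCAP takes SREBP2 to the Golgi, where proteases free the part that enters the nucleus and switches on the synthesis genes. When sterol is plentiful, INSIG proteins hold SCAP back, and oxysterols activate the receptor LXR, which raises genes of sterol export such as Abca1, Abcg5 and Abcg8. The liver is the main organ of both cholesterol synthesis and its removal into bile.

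Library totals ran from 7253910 to 22527309 counts over all tables. Groups follow the sample titles, since at day 28 the characteristics name another dose in 96 libraries. Y-linked genes matched the sex in the title in 359 of 359 libraries and the sex in the characteristics in 311. In the livers of vehicle females on day 2 the summed hepatocyte markers reached 145300 to 194600 CPM, those of T and NK cells at most 3.04 CPM and those of adipocytes at most 0.123 CPM, with 3 of the 4 adipocyte genes at 0 in every library of that group. CPM are the usual depth-scaled counts, with the library total rescaled by TMM, a correction for differences in RNA composition.

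Most promoters of these genes hold a short sequence that the choice of genes did not use. RefSeq promoter windows of 300 bases, from 250 before to 50 after the start of transcription on build GRCm38.p6, matched 26 of the 32 genes. CCAAT, the box bound by NF-Y, a partner of SREBP2, was searched on both strands, where it reads ATTGG on the other. It was present in a window of 23 of the 26 genes, against 41.1% of all 27025 genes with a window, whether or not expressed in liver. Some genes have more than 1 window, and by window it was in 23 of 33, against 37.4% of all windows. The windows of Abcg5 and Abcg8 overlap on opposite strands and have 1 of these sites in common. The letters TCACNCCAC, 1 form of the sterol response element that SREBP2 binds, were in a window of 1 gene, Hmgcs1, against 1.44% of all genes. The palindrome CACGTG was in 6 genes, against 8.09%. No match overlapped another in the 6 windows printed here. They are shown because they cover the pathway's entry and middle, its regulator and a gene that moved the other way after gavage: Hmgcs1 at chr13:119690101-119690400 (plus strand), Mvk at chr5:114444019-114444318 (plus), Acat2 at chr17:12960676-12960975 (minus), Msmo1 at chr8:64733529-64733828 (minus), Insig1 at chr5:28071162-28071461 (plus) and Mylip at chr13:45389492-45389791 (plus). Capitals mark CCAAT or ATTGG and, in Hmgcs1, the sterol response element; all run 5′ to 3′ along the gene's strand.
Hmgcs1: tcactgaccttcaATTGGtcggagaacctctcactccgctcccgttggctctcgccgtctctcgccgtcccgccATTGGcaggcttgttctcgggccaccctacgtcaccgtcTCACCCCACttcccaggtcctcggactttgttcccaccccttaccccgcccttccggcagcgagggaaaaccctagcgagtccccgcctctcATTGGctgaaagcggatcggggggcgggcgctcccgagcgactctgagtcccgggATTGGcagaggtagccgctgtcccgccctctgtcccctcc
Mvk: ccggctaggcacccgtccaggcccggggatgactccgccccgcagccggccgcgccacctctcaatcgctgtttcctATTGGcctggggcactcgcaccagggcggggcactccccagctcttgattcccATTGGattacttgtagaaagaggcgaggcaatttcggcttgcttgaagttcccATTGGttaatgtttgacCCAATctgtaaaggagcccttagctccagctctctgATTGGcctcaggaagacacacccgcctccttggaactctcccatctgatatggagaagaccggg
Acat2: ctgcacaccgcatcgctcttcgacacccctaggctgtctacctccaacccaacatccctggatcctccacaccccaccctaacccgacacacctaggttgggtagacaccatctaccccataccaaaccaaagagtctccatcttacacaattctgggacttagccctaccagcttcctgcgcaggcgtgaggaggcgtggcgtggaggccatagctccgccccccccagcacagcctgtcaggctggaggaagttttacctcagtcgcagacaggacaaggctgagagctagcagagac
Msmo1: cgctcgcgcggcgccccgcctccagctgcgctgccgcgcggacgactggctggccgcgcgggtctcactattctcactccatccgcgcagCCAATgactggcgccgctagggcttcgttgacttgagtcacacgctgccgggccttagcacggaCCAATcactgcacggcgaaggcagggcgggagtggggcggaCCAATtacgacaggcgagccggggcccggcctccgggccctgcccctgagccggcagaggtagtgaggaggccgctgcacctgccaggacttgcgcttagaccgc
Insig1: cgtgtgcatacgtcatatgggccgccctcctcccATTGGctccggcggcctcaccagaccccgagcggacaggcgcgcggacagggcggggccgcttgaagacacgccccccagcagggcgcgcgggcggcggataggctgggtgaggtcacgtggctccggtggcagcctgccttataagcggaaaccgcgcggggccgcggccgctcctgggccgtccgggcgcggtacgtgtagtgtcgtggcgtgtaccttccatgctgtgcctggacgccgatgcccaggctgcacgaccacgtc
Mylip: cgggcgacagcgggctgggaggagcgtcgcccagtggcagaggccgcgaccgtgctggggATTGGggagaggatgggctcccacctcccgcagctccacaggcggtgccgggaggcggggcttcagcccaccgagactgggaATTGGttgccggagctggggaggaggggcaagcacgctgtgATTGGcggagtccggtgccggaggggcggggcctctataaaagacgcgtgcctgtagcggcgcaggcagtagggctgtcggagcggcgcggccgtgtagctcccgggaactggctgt
CCAAT occurred 4 times in the Hmgcs1 window, 5 times in that of Mvk, 3 times in those of Msmo1 and Mylip, 1 time in that of Insig1 and 0 times in that of Acat2. In livers of females at 300 mg/kg-d by gavage, described below, Acat2 fell, as did Hmgcs1, Mvk, Msmo1 and Insig1, which have the box, while Mylip rose. A link between the number of boxes and the direction of change was not tested. A match describes the letters, not a bound factor.

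In vehicle livers the pathway was already unevenly expressed among its members. Per kilobase of exon, the highest mean levels in females on day 5 were those of Hmgcs1, which makes HMG-CoA, at 153.7 CPM per kb, Sc5d, a late sterol desaturase, at 149.4, Insig1 at 133.7 and Ebp, a sterol isomerase, at 126.2. The lowest were Soat1, a sterol-esterifying enzyme, at 0.63 CPM per kb, Ggps1, which makes geranylgeranyl diphosphate, at 1.01, and Mylip at 4.04. Lung differed: on day 2 vehicle females had 215 CPM per kb of Npc2, a lysosomal sterol carrier, against 14.7 in liver, and 13.4 of Soat1 against 0.50 in liver. Sc5d stood at 9.91 CPM per kb in those lungs and 145 in the livers. Between the sexes of vehicle livers few members passed the threshold: 1 of 32 was higher in females on day 2 (Npc2), 2 on day 5 (Srebf2 and Soat1) and 4 on day 28 (Srebf2, Npc2, Abcg5 and Soat1), where 7.32%, 10.6% and 11.5% of all genes tested were higher. Without regard to the threshold, 28 of the 32 had higher values in females and 4 lower on day 2. On day 5 it was 22 and 10, and on day 28 it was 19 and 13. The median log2 difference of the members was 0.30 on day 2, where that of all genes was -0.012, 0.11 on day 5 and 0.044 on day 28. Most synthesis genes varied together within groups, so these are not counts of independent genes. Hmgcs1, which did not pass, had means of 584.8 CPM in vehicle females and 271.9 in vehicle males on day 2.

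After 2 days of gavage at 300 mg/kg-d, most of the mevalonate pathway and part of the later steps fell in the livers of females. Of the 32 genes, 12 were lower and 3 higher than in vehicle females, where 14.7% of all 12627 genes tested were lower and 15.3% higher. The median log2 difference of the 32 was -0.45, and that of all genes -0.019. By role, 6 of 8 mevalonate genes fell (median -1.24), 5 of 11 genes from squalene to cholesterol fell (median -0.73), 1 of 4 control genes fell and 1 rose, and 2 of 9 transport genes rose (median 0.18). Calls are at an adjusted p under 0.05 in edgeR's quasi-likelihood test, adjusted by Benjamini and Hochberg over all genes tested, and DESeq2 called the same numbers, 12 lower and 3 higher.

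**Figure D1:**
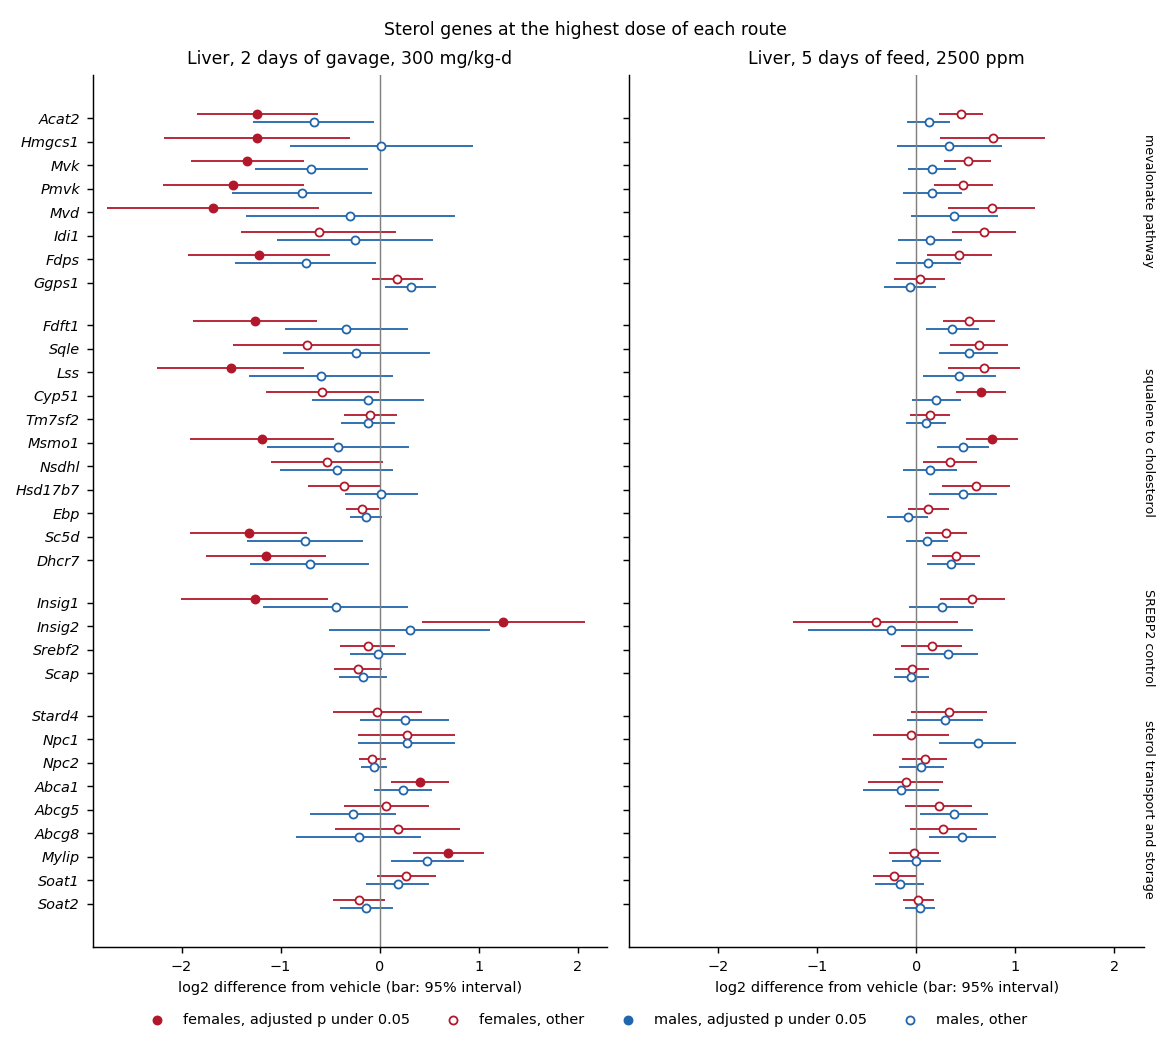
Log2 difference from vehicle in liver for each of the 32 genes, ordered by role (vertical axis), at 300 mg/kg-d by gavage on day 2 (left) and 2500 ppm in feed on day 5 (right), females in red and males in blue, with 95% intervals and filled points for an adjusted p under 0.05. In females all synthesis genes but Ggps1 lie left of 0 after gavage, with 12 of the 32 genes lower past the threshold, and all lie right of 0 after feed.

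Mvk, mevalonate kinase, was 1 of 3 members that lay below vehicle without overlap, where 6.37% of all genes did. Its level in the 6 vehicle females was 55.8, 55.3, 27.8, 29.4, 64.2 and 52.3 CPM, and in the 6 females at 300 mg/kg-d it was 21.7, 12.6, 25.6, 24.7, 11.9 and 16.1 CPM. The groups did not overlap, and the vehicle libraries nearest to the treated ones were replicates 11 and 12, at 27.8 and 29.4 CPM. Mvk fell by 1.34 on the log2 scale (SE 0.28, adjusted p 0.000374).

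The first enzyme, Acat2, which joins acetyl-CoA units, ran from 48.95 to 133.6 CPM in vehicle females (median 96.4) and from 30.2 to 47.8 at 300 mg/kg-d (median 40.8). It fell by 1.24 (SE 0.30, adjusted p 0.00178) without overlap of the groups. Acat2 lies beside the similar gene Acat3 on chromosome 17, and how reads that match both were counted is not given in the sources used here. Pmvk, the kinase after Mvk, ran from 43.95 to 189 CPM (median 94.1) in vehicle females and from 29.2 to 52.8 (median 41.0) in treated ones, and fell by 1.48 (SE 0.36, adjusted p 0.00141). Mvd, the decarboxylase that makes isopentenyl diphosphate, had the lowest fold change of the 32, with medians of 78.6 and 20.9 CPM, and fell by 1.68 (SE 0.53, adjusted p 0.0141). The prenyl transferase Fdps fell by 1.22 (SE 0.36) from a median of 75.5 to 31.7 CPM, and Hmgcs1 by 1.24 (SE 0.47) from 572 to 277. The call of Hmgcs1 (adjusted p 0.0388) was the least firm of these. It was lost with no filter on low counts, with only the compared groups in the fit, and without any of replicates 9, 10, 14, 73, 74 and 77. Idi1, the isomerase of the pathway, had a log2 difference of -0.61 (adjusted p 0.238) and Ggps1 one of 0.18 (adjusted p 0.302), neither past the threshold.

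Of the enzymes after farnesyl diphosphate, those that fell were spread over the whole route. Fdft1, which makes squalene, fell by 1.26 (SE 0.31, adjusted p 0.00188), from a median of 133.8 to 49.8 CPM. Lss, which closes the sterol rings, had medians of 168 and 58.3 CPM, with 67.9 to 314 CPM in vehicle females and 36.2 to 91.2 in treated ones. Its log2 difference was -1.51 (SE 0.37, adjusted p 0.001655). Msmo1, a methyl sterol oxidase, fell by 1.19 (SE 0.36, adjusted p 0.0103), from a median of 452 to 177 CPM. Sc5d stood at 672, 739, 475, 519, 977 and 850 CPM in the vehicle females and at 270, 204, 349, 366, 230 and 272 in those at 300 mg/kg-d. All 6 treated libraries were lower than all 6 vehicle ones, and Sc5d fell by 1.32 (SE 0.30, adjusted p 0.000634). Dhcr7, the last-step reductase, fell from a median of 197 to 96.1 CPM (log2 difference -1.145, SE 0.30, adjusted p 0.00334). The other 6, Sqle, Cyp51, Tm7sf2, Nsdhl, Hsd17b7 and Ebp, had log2 differences between -0.73 and -0.092 and did not pass; Sqle, the rate-limiting squalene epoxidase, had -0.73 (95% interval -1.48 to 0.017) and Cyp51 -0.58 (-1.15 to -0.0088).

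Among the genes that control SREBP2, the 2 Insig genes moved in opposite directions. Insig1, itself a target of SREBP2, was at 667, 584, 259, 567, 682 and 600 CPM in vehicle females and at 116.3, 137.2, 276, 403, 218 and 250 in treated ones. Replicate 11 was the low vehicle library, below 2 of the treated ones, so the groups overlapped. Insig1 fell by 1.26 (SE 0.37, adjusted p 0.00784). Insig2, which has a promoter that fasting activates in liver, was at 173.3, 113.5, 112.2, 69.3, 106.1 and 130.4 CPM in vehicle females and at 519.8, 271.5, 157.7, 199, 299.8 and 228 in treated ones. It rose by 1.25 (SE 0.41, adjusted p 0.0177), with overlap of 1 vehicle and 1 treated library. Without replicate 73, the highest, the log2 difference of Insig2 was 0.97 and no longer passed. Srebf2, the gene of SREBP2 itself, had -0.12 (95% interval -0.40 to 0.16) and Scap -0.22 (-0.46 to 0.023).

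In transport and storage, Mylip, a ubiquitin ligase whose gene is an LXR target, rose by 0.69 (SE 0.18, adjusted p 0.00261). It was at 8.67, 10.5, 12.8, 11.2, 8.53 and 9.45 CPM in vehicle females and at 16.5, 16.4, 12.9, 16.9, 21 and 15.5 in treated ones, so that the lowest treated library stood just above the highest vehicle one. Abca1, a pump that loads cholesterol on HDL, was at 165 to 187 CPM in vehicle females (median 174) and at 188 to 280 at 300 mg/kg-d (median 235). It rose by 0.41 (SE 0.15, adjusted p 0.03), a call lost without any of replicates 11, 12, 15, 75, 76 and 80 and with a trend on transcript length removed, where the difference was 0.24. Acat2, Mvk and Sc5d lay below the vehicle group without overlap and Mylip and Abca1 above it, where 6.37% of all genes lay below and 8.35% above. The other 7 transport genes had log2 differences from -0.21 to 0.27 and did not pass. They include Abcg5 and Abcg8, the pair that pumps sterol into bile, at 0.068 and 0.18. Their annotations overlap on opposite strands (Abcg5 at chr17:84658234-84683011, minus, and Abcg8 at chr17:84676302-84700333, plus), and the strand setting of the counting is not given in the sources used here, so reads of the shared stretch could be given to either.

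**Figure D2:**
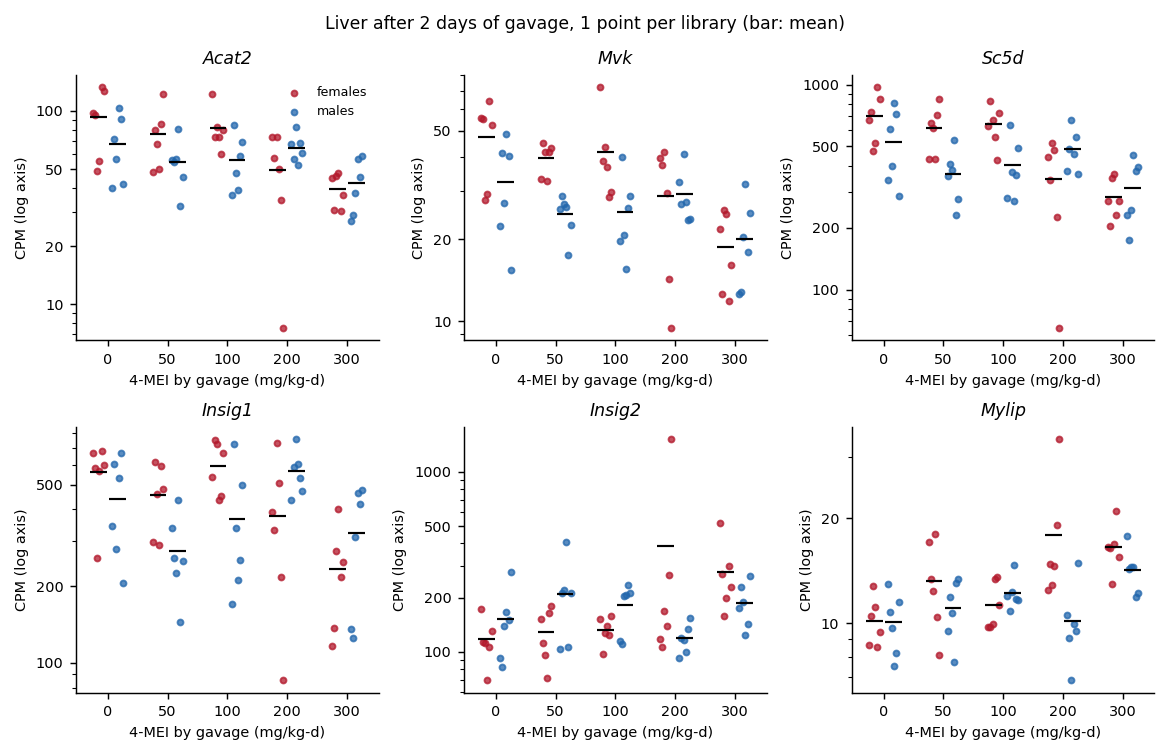
CPM (log axis) of Acat2, Mvk, Sc5d, Insig1, Insig2 and Mylip in each liver library of day 2 by gavage dose in mg/kg-d (horizontal axis), females in red and males in blue, with a bar at each group's mean. In females the 6 libraries at 300 mg/kg-d lie below the vehicle libraries for Acat2, Mvk and Sc5d and above them for Mylip. Of all genes tested 6.37% lay below in that way and 8.35% above. In each panel 1 female library at 200 mg/kg-d, replicate 64, stands apart.

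Lower gavage doses gave fewer calls. In females at 200 mg/kg-d Acat2, Sc5d and Dhcr7 fell (log2 differences -0.91, -1.03 and -0.83) and Insig2 and Mylip rose (1.72 and 0.81), where 6.78% of all genes were lower and 10% higher. The calls of Acat2, Sc5d, Dhcr7 and Insig2 rested on replicate 64. It had 7.52 CPM of Acat2, 9.42 of Mvk, 64.8 of Sc5d, 1525 of Insig2 and 33.7 of Mylip, and 5580 CPM of Igfbp1, a hepatic gene that fasting raises, against 16.3 to 100 in the other 5 females of its group. Without it 0 of the 32 were lower and 1 higher, Mylip, and the log2 differences of Acat2, Sc5d, Dhcr7 and Insig2 were -0.69, -0.82, -0.70 and 0.43. The call of Mylip was lost with only the compared groups in the fit. What set this library apart was not tested. At 50 mg/kg-d edgeR called 0 of the 32 (1 higher at an unadjusted p under 0.05; DESeq2 called 0), where 0% of all genes passed. At 100 mg/kg-d it also called 0 (3 lower unadjusted; DESeq2 0), where 0.0396% did. Along the 5 doses in order, 12 of the 32 had a falling trend in females and 3 a rising one, where 18.2% and 19.3% of all genes did. The trend per dose step was -0.35 for Sc5d (SE 0.07, adjusted p 0.000052), -0.31 for Mvk and 0.41 for Insig2 (SE 0.09, adjusted p 0.000506). These slopes include replicate 64, and their size without it is not given here. Without that library 13 members had a falling trend and 3 a rising one.

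In males at 300 mg/kg-d no member passed in edgeR, where 6.47% of all genes were lower and 8.64% higher. At an unadjusted p under 0.05, 6 were lower and 2 higher, and DESeq2 called 1 lower and 0 higher. The values lay on the same sides of 0 as in females for the leading genes: Mvk at -0.69 (SE 0.29), from a median of 33.7 CPM (15.4 to 48.6) to 19.2 (12.6 to 31.9); Sc5d at -0.755 (SE 0.29), from 504 (285 to 809) to 312 (174 to 451); and Mylip at 0.48 (SE 0.18), from 10.2 (7.53 to 12.96) to 14.4 (11.9 to 17.8). The groups overlapped for each of these. The count of members called was 2 without replicate 1 or 64, 3 without 8 or 68, and 1 without 69. The difference between the effect in females and that in males was tested itself, and edgeR called 0 of the 32 (1 lower at an unadjusted p under 0.05; DESeq2 0), where 0.00792% of all genes passed. For Mvk it was -0.65 (95% interval -1.45 to 0.16) and for Insig2 0.95 (-0.21 to 2.10). Averaged over the sexes, 13 of the 32 fell and 4 rose (2 without replicate 73), where 21.2% and 20.5% of all genes did. They were the 12 of females with Nsdhl (-0.48) and Ebp (-0.16) added and Hmgcs1 absent, and Insig2, Mylip and Abca1 with Ggps1 (0.25, SE 0.09) added. At 100 mg/kg-d in males Soat2, which esterifies cholesterol in liver, fell by 0.46 (adjusted p 0.0386; 2.25% of all genes were lower), from 24.2 to 32.3 CPM in vehicle males to 16.6 to 24.9. That call was lost with no filter on low counts and with the length trend removed. At 50 and 200 mg/kg-d edgeR called 0 in males (1 higher and 2 lower, respectively, unadjusted; DESeq2 0 in each), where 0.0634% and 0.0158% of all genes passed.

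Lists of genes next to the pathway were counted in the same livers, where 14.7% of all genes fell and 15.3% rose in females at 300 mg/kg-d. Of 16 other lipid genes that respond to SREBP proteins, 8 fell and 0 rose in females at 300 mg/kg-d (median -0.85), among them Pnpla3, a lipid droplet lipase, by 3.63, Acly, which makes cytosolic acetyl-CoA, by 1.73, and Acss2, which makes it from acetate, with a log2 difference of -1.395. In males 3 of the 16 fell, Acss2 (-1.06), Acly (-1.12) and Me1 (-0.72), where 6.47% of all genes were lower. Of 10 genes listed under SREBP processing and degradation, 5 rose and 1 fell in females. Mbtps2, a protease that frees SREBP, rose by 0.47, and Srebf1, the gene of SREBP1, fell by 1.09. The genes that rose include Ubxn2a, at 0.62, whose role in SREBP processing is not established. The LXR, carrier, isoprenoid and lipoprotein lists had counts nearer to that background. Among 10 tested LXR and oxysterol genes 2 rose and 1 fell, with Cyp39a1, an oxysterol hydroxylase, up by 1.32. Of 13 genes listed under intracellular sterol carriers, not all of them carriers, 2 rose, Scarb2 by 0.44 and the enzyme gene Nceh1 by 0.50, and Gramd1c fell by 0.40. Among 12 genes of lipoprotein uptake and assembly 3 rose, among them Mttp by 0.45 and Apob by 0.34, and Sort1 fell by 0.94. Of 12 isoprenoid genes beyond the pathway, 3 rose and 2 fell.

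Marker genes of cell types and states were counted between the same female groups, against the same background of 14.7% lower and 15.3% higher. Of 6 hepatocyte markers 4 rose, and their sum ran from 145300 to 194600 CPM in vehicle livers and from 187200 to 205000 at 300 mg/kg-d. Of 6 Kupffer cell markers, those of the liver's macrophages, 2 fell, and the sum had medians of 221 and 181 CPM. Of 4 tested markers of sinusoidal endothelium 2 rose, Lyve1 by 1.29 and Stab2 by 0.40, and the sum had medians of 151.3 and 189.6 CPM. Lrat fell by 0.41, 1 of 5 stellate cell markers, and Krt7 by 0.71, 1 of 4 cholangiocyte markers. Among 5 fasting response genes 1 rose, Fgf21 by 1.47, and their sum ran from 751 to 4098 CPM in vehicle livers (median 1425) and from 1618 to 4518 in treated ones (median 2923). Of 6 core clock genes 0 passed in edgeR, with a median difference of -0.25, and their sum ran from 150 to 420 and from 163 to 294 CPM. Their part in the change of the sterol genes was not tested.

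After 5 days of feed with 2500 ppm few members passed, and those that did were higher than vehicle. In females Msmo1 and Cyp51 rose, 2 of the 32, where 0.0467% of all 12836 genes tested were higher. At an unadjusted p under 0.05, 17 of the 32 were higher and 1 lower in females, and DESeq2 called 7 higher. Msmo1 was at 496, 331, 343, 317, 413 and 392 CPM in vehicle females and at 461, 529, 620, 656, 958 and 672 at 2500 ppm. Only the lowest treated library lay within the vehicle range, below its highest library. Msmo1 rose by 0.77 (SE 0.13, adjusted p 0.00109). Cyp51, which removes a methyl group from lanosterol, ran from 204 to 372 CPM (median 308) in vehicle females and from 402 to 566 (median 467) at 2500 ppm, without overlap, and rose by 0.66 (SE 0.13, adjusted p 0.00578). Sqle and Hsd17b7, a sterol ketoreductase, did not overlap either, at 122.9 to 190.9 against 204.4 to 279.9 CPM and at 68.7 to 124.5 against 130.2 to 166.7 CPM, where 0.132% of all genes lay above vehicle in that way. Their log2 differences were 0.63 (adjusted p 0.0794) and 0.60 (adjusted p 0.235) and did not pass. With only the 2 compared groups in the fit, edgeR called 0 members in females. It called 6 without replicate 89, 4 without 94 (both vehicle) and 6 without the 2500 ppm library at 461 CPM of Msmo1, and 9 with the place of a sample in the numbering as a term.

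**Figure D3:**
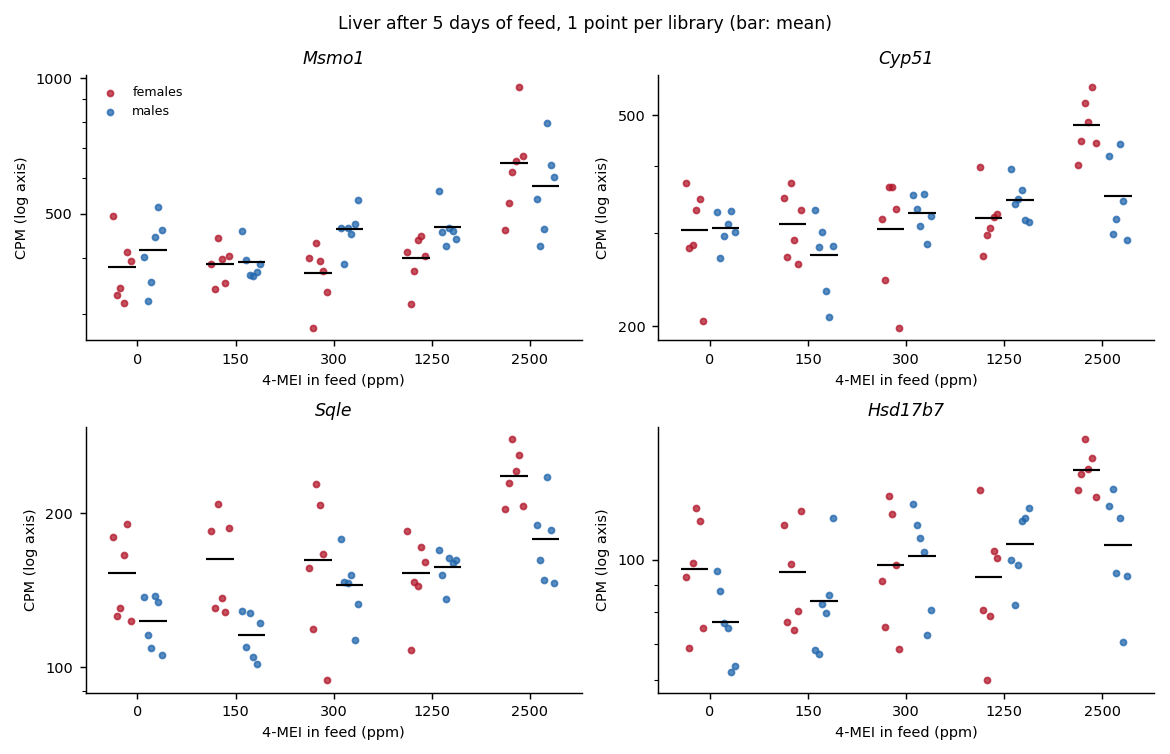
CPM (log axis) of Msmo1, Cyp51, Sqle and Hsd17b7 in each liver library of day 5 by dose in feed in ppm (horizontal axis), females in red and males in blue, with a bar at each group's mean. In females the libraries at 2500 ppm do not overlap vehicle for Cyp51, Sqle and Hsd17b7.

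In males edgeR called 0 of the 32 at 2500 ppm (10 higher at an unadjusted p under 0.05; DESeq2 called 2; 1 called without the library at 2500 ppm with 162.4 CPM of Sqle), where 0.218% of all genes were higher. Sqle had medians of 124.9 CPM in vehicle males and 174.1 at 2500 ppm, without overlap, with a log2 difference of 0.53 (SE 0.15, adjusted p 0.0966). Npc1, a lysosomal sterol exporter, did not overlap in males either, at 127.3 to 160.1 against 183 to 250.8 CPM (0.62, adjusted p 0.169), where 0.467% of all genes lay above vehicle. In females the interval for Npc1 was -0.44 to 0.33. The difference between the sexes was not past the threshold for any of the 32 in edgeR (4 higher in females and 1 lower unadjusted; DESeq2 0), where 0% of all genes passed.

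Averaged over the sexes, 8 of the 32 rose at 2500 ppm on day 5, where 0.358% of all genes did, and 7 of the 8 were among the 11 enzymes from squalene to cholesterol. DESeq2 called 12, and leaving out 1 library at a time gave 6 to 11. Msmo1 rose by 0.62 (SE 0.09, adjusted p 0.000026), Sqle by 0.58 (SE 0.10, adjusted p 0.000951), Lss by 0.56 (SE 0.13, adjusted p 0.0152) and Hsd17b7 by 0.54 (SE 0.12, adjusted p 0.0134). Fdft1 (0.45), Cyp51 (0.43) and Dhcr7 (0.38) followed. Of the 8 mevalonate genes only Mvk passed, at 0.34 (SE 0.08, adjusted p 0.0351), and its call was lost in 15 of 24 fits that each left out 1 library. The call of Lss was lost without replicate 150. The median of the 11 enzymes from squalene on was 0.43 and that of the mevalonate genes 0.33. No control or transport gene passed in this average, with Insig1 at 0.41 (adjusted p 0.0792) and Insig2 at -0.33. At 150, 300 and 1250 ppm edgeR called 0 of the 32 in either sex; unadjusted, 1 was higher and 2 lower in males at 150 ppm, 1 higher at 300 and 4 higher at 1250 ppm, and in females 0, 0 and 1 lower, and DESeq2 called 0 in each. Of all genes 0%, 0.039% and 0.101% passed at these doses in males and 0%, 0% and 0.0312% in females. Over the 5 doses in order, Msmo1 and Cyp51 had a rising trend in females (0.16 and 0.135 per step; 0.117% of all genes did) and Sqle, Msmo1 and Dhcr7 in males (0.15, 0.12 and 0.11; 0.319%). Of the 16 other SREBP-responsive lipid genes edgeR called 0 on day 5 in the average of the sexes (median 0.155), where 0.608% of all genes passed in either direction. Of the 6 Kupffer cell markers 1 fell, Clec4f, where 0.249% of all genes were lower. The Kupffer sum in females ran from 294 to 353 CPM in vehicle and from 217 to 313 at 2500 ppm; its part in the rise was not tested.

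After 28 days of the same feed no synthesis gene passed. At 2500 ppm edgeR called 0 of the 32 in females, where 1.16% of all genes passed in either direction, and 0 in males, where 0.0775% did. Unadjusted, 1 was higher in females and 4 in males, and DESeq2 called 0 in each. Msmo1 had medians of 370 and 322 CPM in females and of 405 and 448 in males, with log2 differences of 0.031 (SE 0.17) and 0.28 (SE 0.17). Soat2 rose in the average of the sexes by 0.25 (adjusted p 0.02; 0.651% of all genes did), and in females it ran from 39.7 to 48.5 CPM in vehicle and from 49.8 to 62.6 at 2500 ppm, without overlap, where 0.628% of all genes lay above. It also had a rising trend of 0.071 per step in females, where 1.51% of all genes did. A test of day 28 against day 5 called 0 members in edgeR in either sex (1 higher and 11 lower unadjusted in females, 0 in males; DESeq2 0), where 0.0914% of all genes passed in females and 0% in males. For Msmo1 in females that difference was -0.73 (95% interval -1.16 to -0.31, adjusted p 0.185), so a loss of the rise between the days did not pass over all genes.

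The fall after gavage and the rise after feed were then set against each other in 1 fit of the day 2 and day 5 livers. The effect of 300 mg/kg-d by gavage minus that of 2500 ppm in feed was below 0 past the threshold for 16 of the 32 in females and above it for 1, where 4.49% of all 13062 genes were lower and 4.87% higher. DESeq2 called 17 lower and 2 higher. By role 7 of 8 mevalonate genes, 8 of 11 genes from squalene to cholesterol and 1 of 4 control genes were lower, and 1 of 9 transport genes was higher. The difference was -1.85 for Mvk (SE 0.31, adjusted p 0.000040), -1.78 for Fdft1 (SE 0.34, adjusted p 0.000283), -2.18 for Lss (SE 0.41, adjusted p 0.000283) and -2.44 for Mvd (SE 0.57, adjusted p 0.00367). For Insig1 it was -1.82 (SE 0.40, adjusted p 0.001955). Mylip was higher by 0.73 (SE 0.22, adjusted p 0.0251), and Insig2 with 1.67 (SE 0.59, adjusted p 0.0556) did not pass. In males edgeR called 0 (10 lower and 2 higher unadjusted; DESeq2 called 1 lower), where 0.589% of all genes were lower and 0.559% higher. In the average of the sexes 17 were lower and 3 higher (Insig2, Mylip and Soat1), where 8.73% and 9.43% of all genes were. Each effect is against its own vehicle group, and the 2 share no library. Route, dose and length of exposure changed together, so their parts cannot be told apart.

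**Figure D4:**
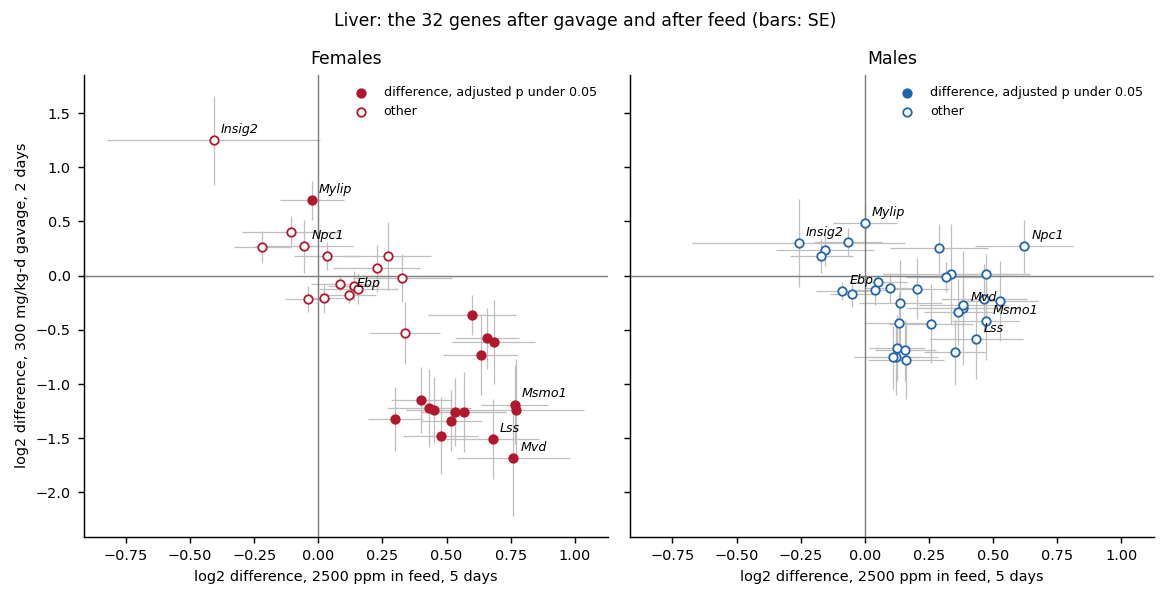
Log2 difference from vehicle after gavage at 300 mg/kg-d on day 2 against that after feed with 2500 ppm on day 5 (axes), 1 point per gene with bars of 1 SE, females and males in separate panels, filled where the difference between the 2 effects passed the threshold. In females 16 genes with lower values after gavage are filled, together with Mylip.

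In lung fewer of these genes passed. In females at 300 mg/kg-d on day 2, 4 of 30 genes fell and 2 rose, where 5.09% and 3.64% of all 15240 genes tested did. Srebf2 fell by 0.35 (SE 0.09, adjusted p 0.00696), from 180.7 to 217.1 CPM in vehicle females to 144.4 to 171.5, and Dhcr7 by 0.55 (SE 0.15, adjusted p 0.0135), from 21.8 to 28.8 CPM to 14.9 to 20.3; for neither gene did the groups overlap, where 3.76% of all genes lay below vehicle. Nsdhl and Sc5d fell by 0.30 and 0.32. Pmvk, which fell in liver, rose in lung by 0.90 (SE 0.30, adjusted p 0.0456), from 29.7 to 46.2 CPM in vehicle to 44.9 to 106.7, and Npc1 rose by 0.30. At 200 mg/kg-d 3 rose (3.04% of all genes did), Pmvk by 1.565, Npc1 by 0.36 and Mylip by 0.92, and Nsdhl fell by 0.32 (2.37%); replicate 64 had 360 CPM of Pmvk there, and the lowest library 41.6. Without it 0 rose and 0 fell at 200 mg/kg-d, and without replicate 66, a male, 5 rose and 6 fell. At 300 mg/kg-d 4 rose without replicate 64, 7 fell without 66, and 1 rose without 78. In males edgeR called 0 at 300 mg/kg-d (2 higher and 4 lower unadjusted; DESeq2 0), where 0.21% of all genes passed in either direction. Pmvk ran from 36.3 to 43.1 CPM in vehicle males and from 47.8 to 135.3 at 300 mg/kg-d without overlap (0.91, adjusted p 0.137), where 0.302% of all genes lay above vehicle. Averaged over the sexes 5 fell and 2 rose, where 5.56% and 4.82% of all genes did. In the lungs of these females the summed core clock genes ran from 644 to 926 CPM in vehicle and from 304 to 529 at 300 mg/kg-d, with 3 of 6 lower and 1 higher, and the T and NK cell markers from 53.2 to 83.8 and from 27.1 to 59.3 CPM, with 3 of 5 lower. Of 5 tested macrophage markers of the Kupffer cell list 3 rose, Cd5l by 3.12, Vsig4 by 2.22 and Timd4 by 1.12, and the sum ran from 58.5 to 92.1 and from 71.3 to 139.6 CPM. Of 4 alveolar type 1 markers 2 fell, Pdpn by 0.69 and Aqp5 by 0.47, with sums of 3688 to 4622 and 3280 to 4007 CPM. Of 5 hepatocyte markers 2 fell, Alb with a log2 difference of -4.75 and Ahsg with -2.95, while their sum had medians of 19.4 CPM in vehicle, where 1 library reached 397, and 51.99 at 300 mg/kg-d. The part of these markers was not tested. On days 5 and 28 edgeR called 0 of 30 in lung at each dose and sex; unadjusted counts were at most 3 higher or 2 lower in any of these groups, and DESeq2 called 0. On day 5 the share of all genes that passed in lung, from the lowest dose to the highest, was 0%, 0%, 0.0383% and 0% in males and 0%, 0.0128%, 0.0447% and 0.0319% in females. On day 28 it was 0%, 0%, 0.032% and 0.0128% in males and 0.032%, 0.153%, 0.0831% and 0.121% in females.

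The difference of the effect between liver and lung was tested on day 2. In females 7 of the 32 were lower in liver, where 2.06% of all genes were: Acat2 (-1.25), Mvk (-1.03), Pmvk (-2.36), Fdft1 (-1.08), Lss (-1.31), Sc5d (-0.98) and Insig1 (-1.415). In males Pmvk was lower in liver (-1.645), where 3.66% of all genes were. With the title number, which liver and lung share, as a block, every one of these calls was lost. In females, where that left 4 pairs in each group, the difference was then -2.01 for Pmvk (SE 0.57, adjusted p 0.0769) and -0.935 for Mvk (SE 0.34, adjusted p 0.199). On days 5 and 28 edgeR called 0 at the highest dose in either sex (15 and 8 higher in liver, unadjusted, in females and males on day 5 and 2 and 1 on day 28; DESeq2 was not run on this comparison), where 0.0062% of all genes passed in each sex on day 5 and 0.328% in females and 0.0805% in males on day 28.

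Within groups, most of the synthesis genes varied together in liver on day 2. Over 60 livers, after removing group means, the median standard deviation of log2 CPM was 0.57 for the synthesis genes and 0.22 for all genes tested. On day 5 it was 0.23 for both and on day 28 it was 0.33 and 0.20. The median correlation of a gene with the 19 synthesis genes on day 2 was 0.89 for Cyp51, Fdft1 and Idi1, 0.88 for Acat2, 0.76 for Insig1 and 0.72 for Srebf2. Among the synthesis genes themselves it was lowest for Tm7sf2, at 0.50, and for Ggps1, at -0.43, which ran against the others. It was -0.32 for Insig2, -0.63 for Npc1, -0.68 for Abcg8 and -0.69 for Mylip. These libraries share tables and scaling, and the values describe them without a test. They include replicate 64, which stood apart from its group for several of these genes. How far the spread and the correlations on day 2 rest on that library was not tested. On day 5 the values of 16 synthesis genes lay between 0.36 (Nsdhl) and 0.66 (Cyp51), and those of Tm7sf2, Ebp and Ggps1 were 0.084, 0.035 and -0.075.

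The share of members that followed the position of a sample in the numbering was near that of all genes. Title numbers fall in blocks of 8, each holding 1 sex and dose, and the place in the block runs from 1 to 8. In a fit with place as a term, 3 of 32 were higher and 7 lower with place in liver on day 5 (15.4% and 16.3% of all genes were), 5 and 6 on day 28 (18.3% and 17.9%), and 1 and 1 on day 2 (4.24% and 3.28%). Insig2 fell by 0.28 per place on day 5 (adjusted p 8.52e-21) and by 0.30 on day 28 (adjusted p 9.54e-21). Its mean went from 308 CPM at place 1 through 248 at place 2, 184 at place 3 and 106.6 at place 6 to 77.7 CPM at place 8 on day 5, and from 288 to 72.3 CPM on day 28. On both days the libraries at place 1 and at place 8 did not overlap, with 262 to 348 against 58.96 to 93.3 CPM on day 5. On day 2 the slope of Insig2 was 0.13 per place (adjusted p 0.0245) and rested on replicate 64, at 1525 CPM and place 8. Without it the slope was 0.067 (adjusted p 0.159) and did not pass, and 0 members were higher with place and 3 lower (Npc1, Abcg8 and Soat2), where 3.26% and 3.83% of all genes were. Hmgcs1 fell by 0.14 and 0.15 per place, Mvd by 0.08 and 0.09 and Srebf2 by 0.07 and 0.05 on days 5 and 28, while Npc1 rose by 0.08 and 0.10, Abcg5 by 0.11 and 0.08 and Abcg8 by 0.10 and 0.07. The mean of Abcg5 was 87.7 CPM at place 1 and 158.3 at place 8 on day 5.

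**Figure D5:**
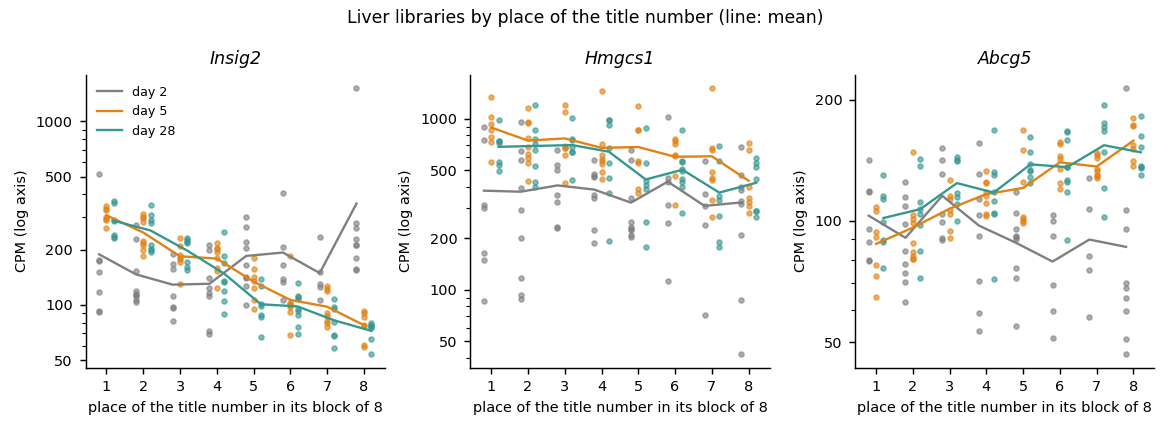
CPM of Insig2, Hmgcs1 and Abcg5 (vertical log axes) in each liver library by its place from 1 to 8 in the block of title numbers (horizontal axis) on days 2, 5 and 28, with a line through the means. The means of Insig2 and Hmgcs1 are lower at place 8 than at place 1 and that of Abcg5 is higher on days 5 and 28.

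Genes of the circadian clock also had slopes along the places, not all in the same pattern. Arntl, a core activator of the clock, fell by 0.80 and 0.75 per place on days 5 and 28 and rose by 0.32 on day 2. Dbp, an output gene of the clock, rose by 0.41 and 0.34 on days 5 and 28 and fell by 0.42 on day 2, and Per1 and Per2, repressors of the clock, rose by 0.50 and 0.35 on day 5 and did not pass on day 2. Nr1d1, a further repressor, fell on all 3 days, by 0.46, 0.11 and 0.17. Of the fasting response genes, Pck1, a gluconeogenic enzyme, rose by 0.25 and 0.20 on days 5 and 28 and Angptl4, an inhibitor of lipoprotein lipase, by 0.11 and 0.10. G6pc, also gluconeogenic, fell by 0.16 and 0.12 and Fgf21 by 0.18 and 0.19, and Igfbp1 did not pass. The part of collection time in these slopes was not tested. Since every dose group fills its own block, an order of the blocks in time cannot be told apart from dose.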

How the data were processed

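RNA-seq was measured in 359 libraries of liver and lung. The values the authors deposited are raw read counts per gene, with no normalization, in 6 tables, 1 for each tissue and day. Per the labels' protocols, library preparation used TruSeq Stranded mRNA reagents. HTSeq, Bowtie2, Trimmomatic and SAMtools are the tools, and mm10 the build, per the submitters' processing notes. Which annotation, tool versions and strand setting were used is not given in the sources used here. A further 1 column without a sample name was not used.

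The tests ran in R 4.3.3 with edgeR 4.0.16 and limma 3.58.1: filterByExpr, TMM scaling, robust quasi-likelihood fits with 1 mean per group, each dose against vehicle of the same tissue, day and sex, and Benjamini-Hochberg adjustment over all genes tested with a threshold of 0.05. Differences between days or tissues were fitted on joined tables. SE is the log2 difference over the root of its F statistic, and intervals are 95%. Exon lengths and positions came from GENCODE M21 on GRCm38.p6, the build mm10, and were found for 32 of 32 members. The alternatives were DESeq2 1.42.0, RLE scaling, no low-count filter, only the groups compared, a term for place in the number block, a length trend removed, 1 library left out, and a replicate block between tissues. Fits without replicates 66 and 78, the place slope without 64, and the settings tried for the trends, the 5-day average of the sexes and the length trend between days, were added after seeing the data. The test was tested on simulated data. Values by library are given for up to 10 members of smallest adjusted p in a contrast, and at most 3 genes past the threshold from each other list. Igfbp1, Clec4f, the clock and fasting genes along places and the further cell type markers were named after their values were seen. Members and lists were chosen with earlier results of these data known.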

Additional observations from a re-analysis of the deposited data

Results flagged for a closer look

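Some libraries stood apart from the rest of their group for a single gene. In vehicle females on day 2, liver replicate 11 had 258.7 CPM of Insig1, where the next lowest had 567 and the highest 682. In vehicle females on day 5, liver replicate 89 had 58.96 CPM of Mvk where the next had 45.4, and 160.6 CPM of Fdft1 where the next had 123.2. In vehicle males on day 5, liver replicate 81 had 101.5 CPM of Lss where the next had 78.1. Chance alone marks about 1 in 20 groups in this way.

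The effect of 300 mg/kg-d on day 2 differed between liver and lung, by a test of the difference itself, for 7 members in females and 1 in males. All 8 of these calls were lost, with 0 members lower in either sex, when the title number was a block. In females the liver minus lung difference in log2 was -1.25 for Acat2 (SE 0.33), -1.03 for Mvk (SE 0.30), -2.36 for Pmvk (SE 0.47), -1.08 for Fdft1 (SE 0.34), -1.31 for Lss (SE 0.40), -0.98 for Sc5d (SE 0.31) and -1.415 for Insig1 (SE 0.38). In males it was -1.645 for Pmvk (SE 0.47). In females the lung difference itself was 0.90 for Pmvk and 0.044 for Acat2.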

How the results depend on the processing

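Over 36 counts of members called, 295 alternative values kept within 1.5 times the main count and 54 did not. Of the values of single named genes 681 stayed past the threshold in the same direction, 53 lost their call and 0 reversed. In females at 300 mg/kg-d in liver the counts stayed at 11 to 13 lower and 2 to 3 higher when 1 library was left out. With DESeq2 the count became 1 in males at 300 mg/kg-d (from 0), 7 in females (from 2) and 2 in males (from 0) at 2500 ppm on day 5, 2 in the average of the sexes on day 28 (from 1), 5 rising trends in females on day 5 (from 2), 2 higher in females (from 1) and 1 in males (from 0) for gavage minus feed, and 2 lower in lungs of females at 200 mg/kg-d (from 1). With place as a term these counts were 1 in males at 300 mg/kg-d, 9 in females and 14 in the average of the sexes on day 5 (from 8), 3 in the average on day 28, 6 rising trends in females on day 5, 2 higher for gavage minus feed in females, and 2 lower in lung at 200 mg/kg-d. With the length trend removed they were 6 in females on day 5, 2 in the average on day 28, 5 rising trends in females on day 5, 0 on day 28 (from 1), 0 lower in males at 100 mg/kg-d (from 1), and 2 lower in lung at 200 mg/kg-d. Fits of the compared groups alone gave 0 higher (from 2) and 0 lower (from 3) in females at 200 mg/kg-d, 1 in males at 300 mg/kg-d, 0 in females and 1 in males on day 5, 5 higher (from 2) and 7 lower (from 4) in lungs of females at 300 mg/kg-d, and 0 higher (from 3) and 0 lower at 200 mg/kg-d. With no low-count filter 0 was lower in males at 100 mg/kg-d and 1 higher in lungs of females at 300 mg/kg-d. The cause of these changes was not tested.

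Leaving out 1 library gave, in liver, 0 to 3 calls in males at 300 mg/kg-d, 1 higher and 0 lower in females at 200 mg/kg-d, 2 to 5 higher and 11 to 15 lower in the average of the sexes on day 2, 2 to 6 in females, 0 to 1 in males and 6 to 11 in the average on day 5, 1 in males at 100 mg/kg-d, and 3 rising and 13 falling trends in females on day 2. In lung it gave 0 to 5 higher and 0 to 6 lower in females at 200 mg/kg-d, 1 to 4 higher and 3 to 7 lower at 300 mg/kg-d, 0 to 1 in males at 300 mg/kg-d and 0 to 0 in females on day 5. With a replicate block for the title number, which liver and lung share, 0 members differed between tissues on day 2 in females (from 7) and 0 in males (from 1). The samples share only a number: same-numbered liver and lung libraries correlated over 0.1 in 36 of 49 pairs on day 2, 16 of 42 on day 5 and 24 of 46 on day 28. Libraries with different numbers were not correlated for comparison, so these counts cannot show whether a pair came from 1 animal. Depth limits precision for genes at low levels, and Soat1 and Ggps1 had the lowest levels per kilobase in liver.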

Other observations

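Some members also followed the place of a sample in its block of title numbers in lung. On day 5, 1 of 30 was higher with place and 7 lower, where 7.69% and 7.3% of all genes were, and on day 28 it was 2 and 4 (7.8% and 8.51%). Hsd17b7 fell by 0.056 log2 per place on day 5 (SE 0.010, adjusted p 0.000059) and by 0.054 on day 28 (SE 0.012). Cyp51 fell by 0.058 and 0.033, and Hmgcs1 by 0.043 and 0.022. Mylip rose by 0.04 and 0.037 on the same days, as did Abca1 on day 28 by 0.068. Npc1, which rose with place in liver, fell in lung on day 5 by 0.043, and the difference between the tissues was not tested.

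The members' variation within liver groups on day 28, after group means were removed, was again shared among most of the synthesis genes. The median correlation with the synthesis genes over 60 livers was 0.87 for Dhcr7, 0.855 for Acat2 and 0.85 for Cyp51, against 0.35 for Tm7sf2 and 0.021 for Ggps1. It was -0.47 for Mylip, -0.44 for Abcg8 and -0.42 for Abcg5. For Insig2, it was 0.24, where it was -0.32 on day 2 over livers that included replicate 64. These are descriptions of libraries that share a table and its scaling.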
